A study of Mus musculus with 24 samples.

Results

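The livers of female mice that lack Cav1 in hepatocytes (HepCAV1ko) were compared between a methionine- and choline-deficient (MCD) diet and a control diet that contains both nutrients. The comparison rests on 6 of the 24 arrays of the series, chosen by their labels as knock out, female and either MCD or control, with 3 arrays per diet. Floxed Cav1 mice had been crossed with mice that carry Cre recombinase under the albumin promoter, so both diet groups carried floxed Cav1 alleles and Alb-Cre, and wild-type littermates (HepCAV1wt) carried the floxed alleles without Cre. The albumin promoter is active in hepatocytes, and the RNA came from whole liver, which also holds endothelial, stellate and immune cells with intact Cav1. All mice ate normal chow until 8 weeks of age, received 1 of the diets for 4 weeks and were 12 weeks old at sampling. RNA was hybridised to Affymetrix MoGene 2.0 ST arrays, and each value is a log2 RMA signal, so that a difference of 1 is a doubling. HepCAV1wt females and HepCAV1ko males on both diets served for comparison, and all 24 arrays, HepCAV1wt males included, shared 1 estimate of the spread.

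Methionine supplies the methyl groups of S-adenosylmethionine and the sulphur of glutathione, and choline is the head group of phosphatidylcholine, the main lipid on the surface of lipoproteins. Without both, the liver makes too little phosphatidylcholine to secrete triglyceride, fat collects in hepatocytes, and steatohepatitis follows. Caveolin-1, the product of Cav1, is the coat protein of caveolae, small invaginations of the plasma membrane that take part in lipid uptake and signalling.

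Cav1 was dim in all arrays, with values of 3.87, 4.12 and 3.83 in control 1 to 3 and 4.11, 3.95 and 4.31 in MCD 1 to 3, and the diets overlapped. In HepCAV1wt females Cav1 read 3.91, 4.88 and 4.40 on the control diet and 4.28, 3.95 and 4.39 on MCD, so that the genotypes overlapped too. Deletion in hepatocytes cannot be read from whole-liver RNA at this level. Xist, transcribed from the inactive X chromosome, lay between 8.56 and 9.68 and the Y-linked Eif2s3y between 2.09 and 2.72 in the 6 arrays, as the female label requires. Of 14 hepatocyte markers none passed the test between diets, and their median log2 fold change was 0.01. Alb averaged 13.53 on both diets, whereas the urea cycle enzyme Ass1 was dim on this array (4.49 and 4.90).

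MCD 3 stood apart from MCD 1 and MCD 2. On the first principal component, which held 39.1% of the variance among the 6 arrays, the controls lay at -18.0, -22.5 and -26.6 and the MCD arrays at 33.6, 29.7 and 3.91. MCD 3 correlated almost as well with the control arrays (mean r = 0.986 across genes) as with the other MCD arrays (mean r = 0.987). When each MCD array was set against the mean diet response of the 3 other combinations of sex and genotype, the slope was 0.766 for MCD 1, 0.669 for MCD 2 and 0.423 for MCD 3, and the 9 MCD arrays of the other groups gave slopes between 0.653 and 1.15. The reference differed between groups, so slopes compare directly only within a group. What set MCD 3 apart was not tested, and the results below are given with and without it where it mattered. Replicates were numbered by the labels, which do not say that each array is a separate mouse. The p-values therefore refer to the scatter among arrays, which may be partly technical.

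**Figure D1:**
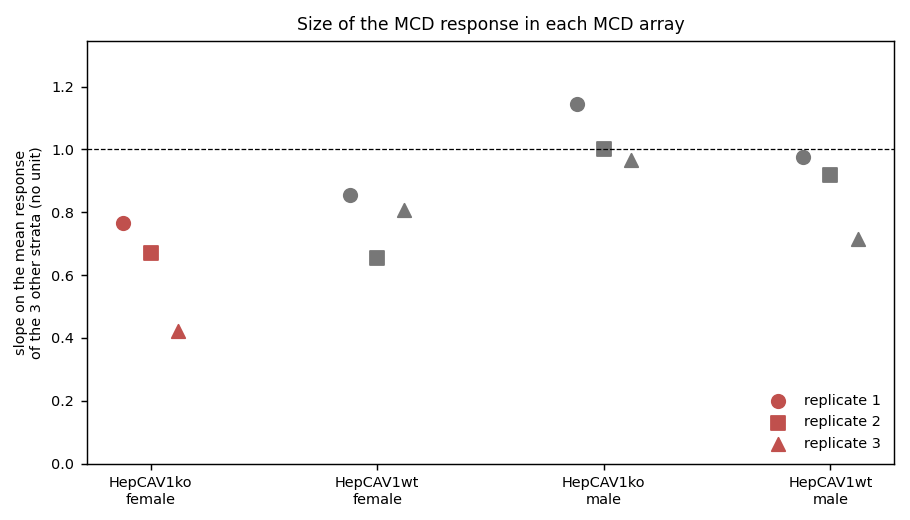
Slope of each of the 12 MCD arrays (vertical axis, no unit) on the mean diet response of the 3 other combinations of genotype and sex, across 24673 genes, with marker shape for the replicate number. HepCAV1ko females (red) have the lowest array of the series, replicate 3 at 0.423, and HepCAV1ko males lie between 0.967 and 1.15. The reference differs between groups, so slopes compare directly only within a group.

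MCD changed 406 of 24673 genes in HepCAV1ko females at an adjusted p under 0.05 (limma, Benjamini-Hochberg). Of these, 189 were higher (0.766% of the genes tested) and 217 lower (0.88%), and 91 rose and 69 fell at least 2-fold. The typical change over all genes was small, with a median absolute log2 fold change of 0.13. An unadjusted p under 0.05 was reached by 2846 genes, where 1234 would be expected if no gene differed. Of the 406 genes, 402 had no overlap between the 3 MCD and 3 control arrays, against 16.5% of all genes. Without MCD 3 the counts grew to 329 higher (1.33%) and 281 lower (1.14%), and 351 of the 406 genes were called again. Leaving out MCD 2, the counts fell to 72 higher and 79 lower, with 146 of the 406 genes called again, and without MCD 1 to 85 higher and 94 lower, with 176 called again. Of the called genes without overlap, 127 also passed in all 6 fits that left out 1 array, 61 higher and 66 lower.

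The 12 largest rises and 12 largest falls described first were chosen among the genes that passed with any of the 6 arrays left out and whose diets did not overlap. This choice leaves out called genes with larger changes, such as Nupr1 (log2 fold change 3.89), which did not pass without MCD 2, and the pseudogene Serpina4-ps1 (-2.96). Sult1e1, the oestrogen sulfotransferase, read 2.73, 4.91 and 4.85 in control 1 to 3 and 9.11, 9.93 and 9.51 in MCD 1 to 3. Every MCD array exceeded every control, and the log2 fold change was 5.35 ± 0.49 (SE, adjusted p = 1.48e-06). Mmp12, the macrophage metalloelastase, read 3.75, 3.72 and 4.16 in control 1 to 3 and 10.74, 9.78 and 6.65 in MCD 1 to 3. MCD 3 was well below the other MCD arrays but still above all controls, and the log2 fold change of 5.18 ± 0.79 (SE, adjusted p = 0.000813) became 6.38 without MCD 3 (adjusted p = 1.73e-05). Cidec, which enlarges lipid droplets, had values of 3.79, 5.10 and 5.09 in control 1 to 3 and 8.09, 9.05 and 7.53 in MCD 1 to 3 and rose by 3.57 ± 0.43 (SE, adjusted p = 5.98e-05). Plin4, another droplet coat protein, rose by 2.18 ± 0.20 (SE, adjusted p = 1.48e-06) from 4.55, 4.09 and 4.42 to 6.50, 6.88 and 6.24, with a tight spread on both diets.

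Dsg1c, a desmosomal cadherin, and Aqp4, a water channel, gave the most even MCD values. Dsg1c read 4.72, 4.25 and 4.18 in control 1 to 3 and 7.19, 7.20 and 7.21 in MCD 1 to 3, a rise of 2.81 ± 0.26 (SE, adjusted p = 1.5e-06), and Aqp4 read 5.01, 6.29 and 5.67 in control 1 to 3 and 8.18, 8.19 and 8.28 in MCD 1 to 3, a rise of 2.56 ± 0.26 (SE, adjusted p = 6.63e-06). For both genes MCD 3 was as high as the other MCD arrays. Fgf21, a hormone that the liver releases when amino acids are short, read 3.92, 4.41 and 5.96 in control 1 to 3 and 7.14, 7.33 and 7.78 in MCD 1 to 3 and rose by 2.65 ± 0.51 (SE, adjusted p = 0.00706). Gadd45b, a growth arrest gene induced by stress, read 4.70, 4.23 and 4.82 in control 1 to 3 and 6.50, 7.02 and 7.45 in MCD 1 to 3 and rose by 2.41 ± 0.27 (SE, adjusted p = 1.97e-05), with MCD 3 the highest of the 6. The remaining genes among these 12 rises were Lpl, the lipase that releases fatty acids from lipoproteins (2.51 ± 0.46), the interferon-inducible Ifi27l2b (2.26 ± 0.33), the membrane-binding protein Anxa2 (2.23 ± 0.39) and the tubulin Tubb2a (2.08 ± 0.31). In Ifi27l2b and Anxa2, MCD 3 (5.55 and 5.60) lay more than 1 unit under MCD 1 and MCD 2 and did not overlap with the controls.

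Among the falls, Cyp3a16, a female-enriched cytochrome P450, read 9.94, 9.55 and 8.89 in control 1 to 3 and 2.39, 4.40 and 5.29 in MCD 1 to 3. All controls were bright and all MCD arrays dim, with a log2 difference of -5.44 ± 0.48 (SE, adjusted p = 1.48e-06). Sult3a1, a female-enriched sulfotransferase, behaved alike, with 9.26, 8.79 and 9.63 in control 1 to 3 and 3.57, 4.86 and 5.27 in MCD 1 to 3 and a log2 difference of -4.66 ± 0.54 (SE, adjusted p = 3.18e-05). Scd1, the desaturase that makes monounsaturated fatty acids, read 12.29, 12.64 and 12.71 in control 1 to 3 and 8.89, 7.12 and 8.74 in MCD 1 to 3. The diets were separated by more than 3 units, and the log2 fold change was -4.30 ± 0.46 (SE, adjusted p = 1.25e-05). The cytochrome Cyp2c54 changed by -3.47 ± 0.35 (SE, adjusted p = 6.63e-06), the carboxylesterase Ces3b by -2.89 ± 0.28 (SE, adjusted p = 3.15e-06) and the female-enriched Cyp2c69 by -2.80 ± 0.34 (SE, adjusted p = 6.71e-05). Cyp2c69 read 9.21 in MCD 3 against 7.98 and 8.08 in MCD 1 and MCD 2, all below the lowest control at 11.02. These cytochromes and sulfotransferases belong to families with near-identical members whose probes can cross-hybridise, so single members are uncertain.

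Mup3, a major urinary protein made in large amounts by hepatocytes, was very even, with 13.10, 13.04 and 13.10 in control 1 to 3 and 10.83, 10.90 and 10.69 in MCD 1 to 3, and fell by 2.27 ± 0.20 (SE, adjusted p = 1.48e-06). Its gene family has many near-identical copies. Dpys, an enzyme of pyrimidine breakdown, had a log2 fold change of -2.55 ± 0.33, the fatty acid elongase Elovl3 of -2.41 ± 0.45, the droplet lipase Pnpla3 of -2.27 ± 0.36, the glycine acyltransferase-like Keg1 of -2.14 ± 0.27 and the sodium channel subunit Scnn1a of -2.09 ± 0.23.

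**Figure D2:**
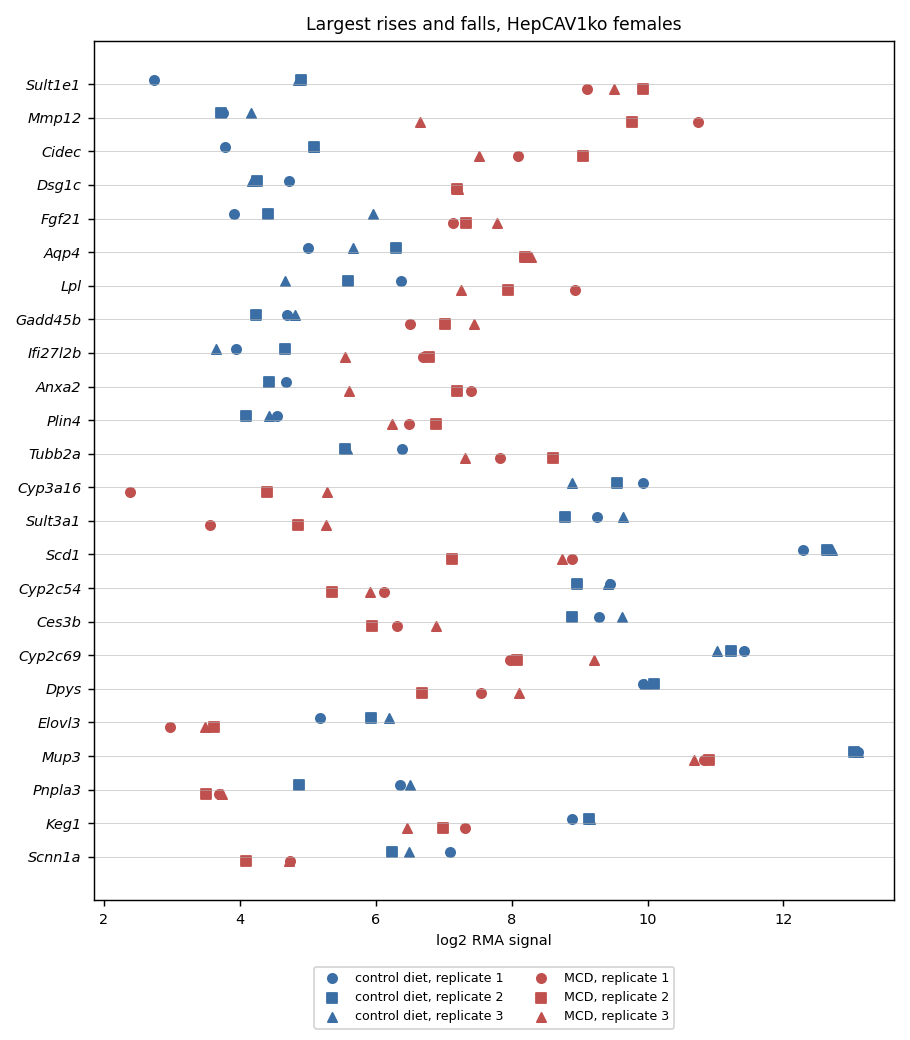
Log2 RMA signal (horizontal axis) of the 12 largest rises and 12 largest falls in the 3 control (blue) and 3 MCD (red) arrays of HepCAV1ko females, with marker shape for the replicate number. The genes were chosen for a lack of overlap between the diets. MCD 3 (red triangle) lies nearest to the controls in Mmp12, Anxa2 and Cyp2c69 but not in Gadd45b, Aqp4 or Keg1.

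Of 24 measured enzymes of methionine and one-carbon metabolism, 2 rose and 2 fell, beside 0.766% and 0.88% of all genes, and the median log2 fold change was -0.10 in the list and -0.01 over all genes. Mthfd1l, which makes formate in mitochondria, read 4.21, 3.98 and 4.74 in control 1 to 3 and 5.94, 5.79 and 5.55 in MCD 1 to 3 and rose by 1.45 ± 0.24 (SE, adjusted p = 0.0021). Gamt, the methyltransferase that makes creatine, read 9.74, 9.80 and 9.76 in control 1 to 3 and 8.97, 8.94 and 8.95 in MCD 1 to 3, a decrease without overlap (-0.81 ± 0.16 (SE, adjusted p = 0.00839)). Dmgdh, which breaks down the choline product dimethylglycine, rose (0.75, adjusted p = 0.0279), and Shmt1, which links serine to the folate pool, fell (-0.61, adjusted p = 0.018). Dmgdh and Shmt1 did not pass in several fits that left out 1 array (Dmgdh without control 1, control 2, control 3, MCD 2 or MCD 3 (adjusted p up to 0.16), Shmt1 without control 2, MCD 1 or MCD 2 (adjusted p up to 0.151)).

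Mat1a, which makes S-adenosylmethionine in hepatocytes, read 12.40, 12.69 and 12.69 in control 1 to 3 and 12.59, 12.59 and 12.88 in MCD 1 to 3, with overlap and an adjusted p of 0.881. The values for Gnmt, which uses up excess S-adenosylmethionine, were 10.97, 10.85 and 10.94 in control 1 to 3 and 10.28, 10.38 and 10.82 in MCD 1 to 3 (adjusted p = 0.391). For Bhmt, which remethylates homocysteine with betaine, they were 6.80, 7.18 and 7.62 in control 1 to 3 and 6.82, 6.89 and 6.98 in MCD 1 to 3 (adjusted p = 0.666), and for Cbs, which directs homocysteine towards cysteine, 10.40, 9.92 and 9.73 in control 1 to 3 and 9.77, 9.99 and 9.69 in MCD 1 to 3 (adjusted p = 0.796). None of these 3 passed. Pemt, which methylates phosphatidylethanolamine to phosphatidylcholine, read 10.88, 10.68 and 11.04 in control 1 to 3 and 10.93, 10.95 and 11.18 in MCD 1 to 3 (adjusted p = 0.725), and 1 of 17 members of the choline and phosphatidylcholine list was called, Aldh7a1, a dehydrogenase that also oxidises betaine aldehyde (-0.46, adjusted p = 0.0496). The call for Aldh7a1 was lost in 5 of the 6 fits without 1 array, with adjusted p up to 0.256.

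In lipogenesis, the synthesis of fatty acids and triglyceride, 2 of 25 members fell, Scd1 and Pnpla3, and none rose. The list median was -0.35, and 10 members were lower at an unadjusted p under 0.05. Pnpla3 read 6.36, 4.88 and 6.50 in control 1 to 3 and 3.70, 3.50 and 3.73 in MCD 1 to 3. Thrsp, a lipogenic regulator, read 12.12 on average on the control diet and 10.005 on MCD (-2.11, adjusted p = 0.0846). Srebf1, the main transcription factor of insulin-driven lipogenesis, averaged 8.92 and 7.76 (-1.16, adjusted p = 0.0548) and Mlxipl, the carbohydrate response factor, 8.85 and 8.03 (-0.83, adjusted p = 0.0596). None of these 3 passed. Control 2 lay below the other controls over the list, and without it 5 members were lower. In the list of elongases and desaturases of long-chain fatty acids Elovl3 fell and Hacd2 rose (0.67, adjusted p = 0.0363), the latter a call lost without control 2, control 3, MCD 1, MCD 2 or MCD 3 (adjusted p up to 0.172). Of 22 genes of cholesterol synthesis only Tm7sf2, a sterol reductase, passed. It read 8.68, 8.36 and 8.72 in control 1 to 3 and 7.20, 7.51 and 7.24 in MCD 1 to 3, a change of -1.26 ± 0.19 (SE, adjusted p = 0.000784).

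Of 23 measured genes of lipid droplets and fatty acid uptake, 6 rose, none fell, and the median log2 fold change was 0.26. Besides Cidec, Lpl and Plin4 these were Pparg, the adipogenic nuclear receptor (1.39), the fatty acid carrier Cd36 (1.25) and the triglyceride lipase Pnpla2 (0.79). Lpl read 6.37, 5.59 and 4.66 in control 1 to 3 and 8.93, 7.95 and 7.26 in MCD 1 to 3. Cd36 read 8.71, 9.68 and 8.88 in control 1 to 3 and 10.25, 10.50 and 10.27 in MCD 1 to 3, and Pparg 4.98, 5.76 and 5.30 in control 1 to 3 and 6.75, 7.07 and 6.38 in MCD 1 to 3. In none of these did the diets overlap. The calls for Pparg, Cd36 and Pnpla2 did not hold in every fit without 1 array. They were lost for Pparg without control 1 or MCD 2 (adjusted p up to 0.0825), Cd36 without control 1, control 3 or MCD 2 (adjusted p up to 0.0803) and Pnpla2 without control 1, control 2, MCD 1 or MCD 2 (adjusted p up to 0.222). Plin2, the droplet coat protein of hepatocytes, averaged 10.71 and 11.38 (adjusted p = 0.171). In all, 3 members passed without control 1, 3 without MCD 2 and 7 without MCD 3.

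Of 25 PPARα targets and peroxisomal genes on the list 2 rose and none fell. The list does not hold every peroxisomal gene. Off it, Acox2 rose, and Eci3 and Pipox, named after their values were seen, fell. Both falls passed in each fit without 1 array, with log2 fold changes of -1.03 to -1.63 for Eci3 and -1.30 to -1.60 for Pipox. Pdk4, which spares pyruvate by inhibiting its dehydrogenase, read 5.49, 6.22 and 7.34 in control 1 to 3 and 7.65, 9.03 and 7.89 in MCD 1 to 3 (1.84 ± 0.43 (SE, adjusted p = 0.0252)), and Acot2, a mitochondrial thioesterase, read 9.002, 10.16 and 9.44 in control 1 to 3 and 10.48, 11.24 and 10.42 in MCD 1 to 3 (1.18 ± 0.28 (SE, adjusted p = 0.0306)). The calls for Pdk4 and Acot2 did not hold in every fit without 1 array. They were lost for Pdk4 without control 1, control 2 or MCD 2 (adjusted p up to 0.209) and Acot2 without control 1, control 3, MCD 1 or MCD 2 (adjusted p up to 0.235). None of 19 genes of mitochondrial fatty acid oxidation and ketogenesis and none of 33 respiratory chain genes passed (limma; 2 and 1 at an unadjusted p under 0.05). Among 20 lipoprotein genes, Pltp, the phospholipid transfer protein, read 9.45, 9.74 and 9.64 in control 1 to 3 and 8.41, 8.37 and 8.37 in MCD 1 to 3 and was lower on MCD by a wide margin (-1.22 ± 0.18 (SE, adjusted p = 0.000654)). Angptl8, which restrains lipoprotein lipase, rose (1.68, adjusted p = 0.0367), a call lost without control 2, control 3, MCD 1, MCD 2 or MCD 3 (adjusted p up to 0.169).

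Genes of the integrated stress response, through which cells short of amino acids translate ATF4 and switch on biosynthesis and transport genes, gave 4 rises and no fall among 23 measured, with a median of 0.31. Nupr1, a small chromatin-associated stress protein, read 4.72, 4.70 and 4.68 in control 1 to 3 and 8.65, 10.43 and 6.70 in MCD 1 to 3. The controls lay close together and MCD 3 was the lowest MCD array, for a rise of 3.89 ± 0.75 (SE, adjusted p = 0.00704) that was 4.84 without MCD 3 (adjusted p = 0.000657). Asns, asparagine synthetase, read 3.28, 3.58 and 3.53 in control 1 to 3 and 5.07, 5.85 and 4.42 in MCD 1 to 3 and rose by 1.65 ± 0.33 (SE, adjusted p = 0.00913). Atf3, a stress-induced transcription factor, read 4.70, 4.81 and 5.34 in control 1 to 3 and 6.79, 6.91 and 6.02 in MCD 1 to 3 and rose by 1.62 ± 0.29 (SE, adjusted p = 0.00408). With Fgf21 these were the 4 genes. Nupr1 and Asns did not pass without MCD 2 (adjusted p = 0.0749 and 0.0922). Chac1, a glutathione-degrading target of the same response, averaged 5.26 and 4.92, and Atf4 itself 6.53 and 6.84, and neither passed. Without MCD 3 the list had 6 rises.

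The promoters of these 4 genes are shown because all 4 hold the amino acid response element to which ATF4 binds with C/EBP proteins. The letters searched were TGATGNAAN on both strands, in windows from 250 bases before to 50 bases after the annotated start (RefSeq, GRCm38.p6, minus strand for all 4). Capitals mark the match, in the orientation of the gene. The windows are chr7:126625421-126625720 for Nupr1, chr7:45615441-45615740 for Fgf21, chr6:7693160-7693459 for Asns and chr1:191183284-191183583 for Atf3.
Nupr1: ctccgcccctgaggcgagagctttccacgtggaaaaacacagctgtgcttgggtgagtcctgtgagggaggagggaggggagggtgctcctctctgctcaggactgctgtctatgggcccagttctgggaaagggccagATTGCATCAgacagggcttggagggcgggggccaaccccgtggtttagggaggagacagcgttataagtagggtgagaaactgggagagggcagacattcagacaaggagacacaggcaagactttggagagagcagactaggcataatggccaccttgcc
Fgf21: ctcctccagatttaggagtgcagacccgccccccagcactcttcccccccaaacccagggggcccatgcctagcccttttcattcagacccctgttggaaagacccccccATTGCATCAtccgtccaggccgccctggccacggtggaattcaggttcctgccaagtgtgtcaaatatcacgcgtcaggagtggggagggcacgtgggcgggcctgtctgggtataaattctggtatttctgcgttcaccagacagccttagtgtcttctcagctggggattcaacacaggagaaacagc
Asns: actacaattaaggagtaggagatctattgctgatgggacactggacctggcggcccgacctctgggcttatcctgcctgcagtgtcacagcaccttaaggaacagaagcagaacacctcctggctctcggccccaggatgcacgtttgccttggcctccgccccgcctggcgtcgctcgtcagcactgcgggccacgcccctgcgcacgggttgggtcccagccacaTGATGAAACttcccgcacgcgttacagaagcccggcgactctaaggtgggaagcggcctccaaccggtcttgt
Atf3: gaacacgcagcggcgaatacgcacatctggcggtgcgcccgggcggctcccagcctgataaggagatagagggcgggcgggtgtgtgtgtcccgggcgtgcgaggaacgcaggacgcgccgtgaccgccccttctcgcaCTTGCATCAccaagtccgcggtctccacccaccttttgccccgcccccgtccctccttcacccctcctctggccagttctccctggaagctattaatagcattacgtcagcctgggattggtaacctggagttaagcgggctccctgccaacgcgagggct
Counting from the start, the match begins at base -111 in Nupr1, -140 in Fgf21, -23 in Asns and -111 in Atf3. Nupr1 and Fgf21 share the same 9 letters, ATTGCATCA. Of 19 list members with a promoter in the reference, 7 held the element, against 3.87% of 18380 genes on the array. Of those 7, Trib3, Chac1 and Vldlr did not pass (log2 fold changes 0.64, -0.35 and 0.78). A match is a description of the sequence and no evidence of binding.

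In the list of glutathione metabolism and NRF2 targets, which detoxify electrophiles, 6 of 34 members rose and 1 fell, with a median of 0.36. Gstm3 read 8.58, 8.30 and 7.97 in control 1 to 3 and 10.29, 9.85 and 10.15 in MCD 1 to 3 (1.81 ± 0.28 (SE, adjusted p = 0.00107)). Gstp1 read 9.44, 8.94 and 9.31 in control 1 to 3 and 10.53, 10.87 and 10.54 in MCD 1 to 3 (1.42 ± 0.23 (SE, adjusted p = 0.00174)), and Gstm2 read 8.18, 8.41 and 8.12 in control 1 to 3 and 9.17, 9.11 and 9.08 in MCD 1 to 3 (0.88 ± 0.15 (SE, adjusted p = 0.00186)). All 3 are glutathione S-transferases, MCD 3 was level with the other MCD arrays in each, and near-identical family members may share their probes. Abcc4, an export pump for organic anions, read 5.13, 4.98 and 4.52 in control 1 to 3 and 6.69, 6.77 and 6.23 in MCD 1 to 3 (1.69 ± 0.26 (SE, adjusted p = 0.000722)). Ugdh, which makes UDP-glucuronic acid, read 9.15, 9.29 and 8.98 in control 1 to 3 and 10.55, 10.83 and 9.85 in MCD 1 to 3 (1.27 ± 0.24 (SE, adjusted p = 0.00599)), and Gss, glutathione synthetase, rose by 0.77. Gstk1, a mitochondrial and peroxisomal transferase, fell (-0.61). Calls for the last 3 were lost for Ugdh without MCD 2 (adjusted p = 0.0661), Gss without MCD 2 (adjusted p = 0.0824) and Gstk1 without control 2, MCD 1 or MCD 2 (adjusted p up to 0.0987). Nqo1, a classical NRF2 target, averaged 5.86 and 6.43 (adjusted p = 0.315), and Gclm, the modifier subunit of a ligase of glutathione synthesis, 9.98 and 9.99.

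Ugdh and Abcc4 were the called members whose promoter windows hold the antioxidant response element, searched as TGACNNNGC on both strands and marked in capitals below (RefSeq, GRCm38.p6, minus strand, chr5:65435793-65436092 and chr14:118706170-118706469). Ugdh holds it in both orientations.
Ugdh: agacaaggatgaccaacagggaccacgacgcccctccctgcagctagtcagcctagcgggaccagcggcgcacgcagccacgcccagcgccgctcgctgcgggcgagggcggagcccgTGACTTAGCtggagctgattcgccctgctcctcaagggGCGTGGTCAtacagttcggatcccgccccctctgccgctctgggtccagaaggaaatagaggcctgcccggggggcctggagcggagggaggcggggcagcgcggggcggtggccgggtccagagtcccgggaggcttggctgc
Abcc4: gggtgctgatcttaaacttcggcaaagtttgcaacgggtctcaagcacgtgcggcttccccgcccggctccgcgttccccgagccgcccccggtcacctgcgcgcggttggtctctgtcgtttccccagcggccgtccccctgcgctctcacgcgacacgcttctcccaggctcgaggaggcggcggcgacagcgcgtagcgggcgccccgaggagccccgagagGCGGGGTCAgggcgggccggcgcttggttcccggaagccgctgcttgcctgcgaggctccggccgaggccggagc
In Ugdh the matches begin at -132 and -94, and in Abcc4 at -25. A second annotated start of Abcc4 (window chr14:118676882-118677181, not printed) has a match, TGACTCTGC, at -23. Among 29 list members with a promoter 9 held the element, against 15% of 18380 genes, so that its occurrence is common. The sterol response element (TCACNCCAC) was found in 1 of 18 genes of cholesterol synthesis against 1.44% of all genes, the direct repeat of PPARα (GGTCANAGG) in none of 16 PPARα targets against 1.98%, and the STAT5 element (TTCNNNGAA, the same on both strands) in 4 of 19 growth hormone genes against 9.22%.

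Cytochromes and conjugating enzymes moved in both directions. Of 34 cytochrome and drug metabolism genes 2 rose and 4 fell. Cyp2d9, a male-enriched cytochrome, read 5.34, 4.63 and 4.98 in control 1 to 3 and 6.56, 7.02 and 6.80 in MCD 1 to 3 and rose by 1.81 ± 0.31 (SE, adjusted p = 0.00247), and Cyp2c55 rose by 1.77 (adjusted p = 0.049), the latter a call that only the fit without MCD 3 kept among the 6. The falls on the list were Cyp3a16, Cyp2c54, Cyp2c69 and the epoxygenase Cyp2j5 (-0.69, adjusted p = 0.000824). The list does not hold every cytochrome. Off it, and named after their values were seen, Cyp4f14, Cyp4f13, Cyp4f17 and Cyp2c67 fell and Cyp39a1 rose. Only Cyp4f14 among these passed in each fit without 1 array (log2 fold changes -1.45 to -1.79). Cyp2c39, a retinoic acid hydroxylase, read 6.73, 7.35 and 7.10 in control 1 to 3 and 6.95, 6.98 and 7.05 in MCD 1 to 3 and the diets overlapped (adjusted p = 0.967). Of 26 conjugating enzymes on the list Sult1e1 rose and 4 fell, including Sult3a1 and Sult2a8, a bile acid sulfotransferase that read 10.13, 9.82 and 9.73 in control 1 to 3 and 8.18, 8.05 and 8.02 in MCD 1 to 3 (-1.81 ± 0.23 (SE, adjusted p = 8.72e-05)). Sult2a5, a sulfotransferase off the list and named after its values were seen, rose. It passed in each fit without 1 array (log2 fold changes 1.68 to 2.64).

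Of 27 bile acid genes 2 rose and 2 fell. Slc51b, a subunit of the basolateral bile acid exporter, read 4.08, 4.38 and 4.05 in control 1 to 3 and 6.64, 5.47 and 5.79 in MCD 1 to 3 and rose by 1.80 ± 0.30 (SE, adjusted p = 0.00173). Acox2, the peroxisomal oxidase that shortens the side chain, rose by 0.78 ± 0.15 (SE, adjusted p = 0.00634). Slc27a5, which activates bile acids for conjugation, fell from 10.47, 10.43 and 10.36 to 9.48, 9.15 and 9.62 (-1.01 ± 0.18 (SE, adjusted p = 0.00427)), and Slc10a1, the uptake carrier of the sinusoidal membrane, fell (-0.81, adjusted p = 0.0187), a call lost without control 2, control 3, MCD 1 or MCD 2 (adjusted p up to 0.109). Cyp7a1, the rate-limiting enzyme of bile acid synthesis, read 9.80, 10.49 and 9.74 in control 1 to 3 and 10.21, 9.24 and 10.50 in MCD 1 to 3, with full overlap. Slco1a1, an organic anion transporter, averaged 8.74 and 3.95, yet did not pass (-4.79 ± 1.28, adjusted p = 0.0637).

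**Figure D3:**
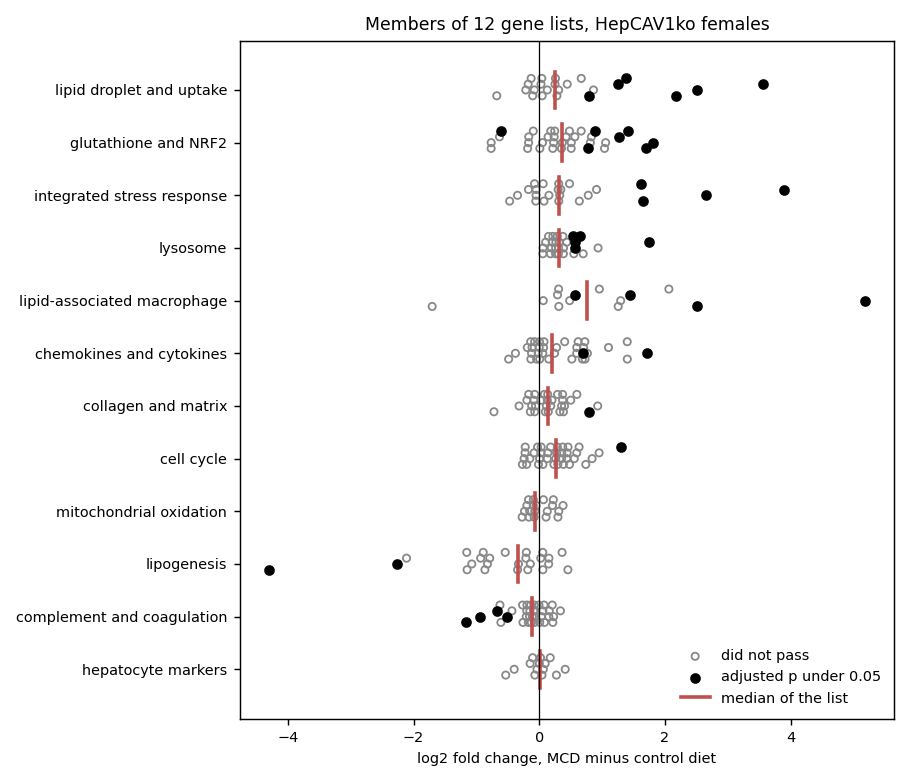
Log2 fold change (horizontal axis, MCD minus control diet) of every measured member of 12 gene lists in HepCAV1ko females. Filled points passed an adjusted p under 0.05 and open points did not, and the red bar is the list median, which ranges from -0.35 in lipogenesis to 0.76 in the lipid-associated macrophage list.

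In whole liver, more cells of a type and more RNA per cell cannot be told apart. Of 14 markers of lipid-associated macrophages, which take up lipid and cell debris, 4 rose and none fell: Mmp12, Lpl, Cd63 and Ctsd. The mean deviation of the list from the control mean was 1.85 in MCD 1, 1.00 in MCD 2 and 0.37 in MCD 3, and the controls lay between -0.14 and 0.13. Trem2, the lipid receptor that defines these cells, read 4.54, 5.003 and 4.40 in control 1 to 3 and 6.32, 5.24 and 5.26 in MCD 1 to 3 (adjusted p = 0.125). Gpnmb, a glycoprotein of the same cells, read 3.40, 2.72 and 3.22 in control 1 to 3 and 7.47, 4.30 and 3.76 in MCD 1 to 3 and did not pass (adjusted p = 0.392), with MCD 1 far above the rest. Without MCD 3, 6 members passed. Calls were lost for Ctsd without control 1, control 2, control 3, MCD 1 or MCD 2 (adjusted p up to 0.247) and Cd63 without control 3, MCD 1 or MCD 2 (adjusted p up to 0.0985).

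Cd68, a pan-macrophage lysosomal protein, read 7.15, 6.83 and 7.01 in control 1 to 3 and 8.70, 8.34 and 7.26 in MCD 1 to 3, a rise of 1.11 ± 0.28 (SE, adjusted p = 0.0497) that was 1.53 without MCD 3 (adjusted p = 0.00141) and was lost when any other array was left out (adjusted p up to 0.31). It was the only called gene of 14 monocyte and macrophage markers. Ccr2, the receptor that brings monocytes into tissue, read 2.89, 2.74 and 2.29 in control 1 to 3 and 5.08, 3.93 and 3.11 in MCD 1 to 3 (adjusted p = 0.0985). None of 10 Kupffer cell markers passed (limma; 1 higher and 3 lower at an unadjusted p under 0.05), and Clec4f read 8.77, 8.53 and 8.48 in control 1 to 3 and 8.27, 8.44 and 8.16 in MCD 1 to 3. Markers of neutrophils were dim and none of 10 passed (1 at an unadjusted p under 0.05). Of 16 lymphocyte markers the T cell receptor subunit Cd3g fell, from 4.29, 4.36 and 3.92 to 3.76, 3.36 and 3.45 (-0.67 ± 0.15 (SE, adjusted p = 0.0179)), at low signal, a call lost without control 1, control 2 or MCD 2 (adjusted p up to 0.132).

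Among 34 chemokines, cytokines and receptors 2 rose, Cxcl10 and Cxcl16. Cxcl10, a T cell attractant induced by interferon, read 4.24, 4.86 and 4.29 in control 1 to 3 and 6.71, 6.85 and 4.95 in MCD 1 to 3 (1.71 ± 0.40 (SE, adjusted p = 0.0281)), and the log2 fold change was 2.32 without MCD 3 (adjusted p = 0.000688). Cxcl16, a chemokine and scavenger receptor, read 6.37, 6.17 and 6.15 in control 1 to 3 and 7.19, 7.06 and 6.55 in MCD 1 to 3 (0.70 ± 0.17 (SE, adjusted p = 0.0375)). No member of the list was called without control 1, control 3, MCD 1 or MCD 2, 1 was without control 2, and 7 were without MCD 3. None of 25 interferon-response genes on the list and none of 30 acute phase genes passed (limma; 2 and 7 at an unadjusted p under 0.05), and 2 of each list passed without MCD 3. The interferon list does not hold Cxcl10 or Ifi27l2b, which are also induced by interferon and rose. The mean deviation of the interferon list was 0.49, 0.30 and -0.43 in MCD 1 to 3 against -0.27 to 0.19 in the controls, so that MCD 3 lay below all controls. Whether the arrays that showed little of these genes had fewer inflammatory cells was not tested.

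**Figure D4:**
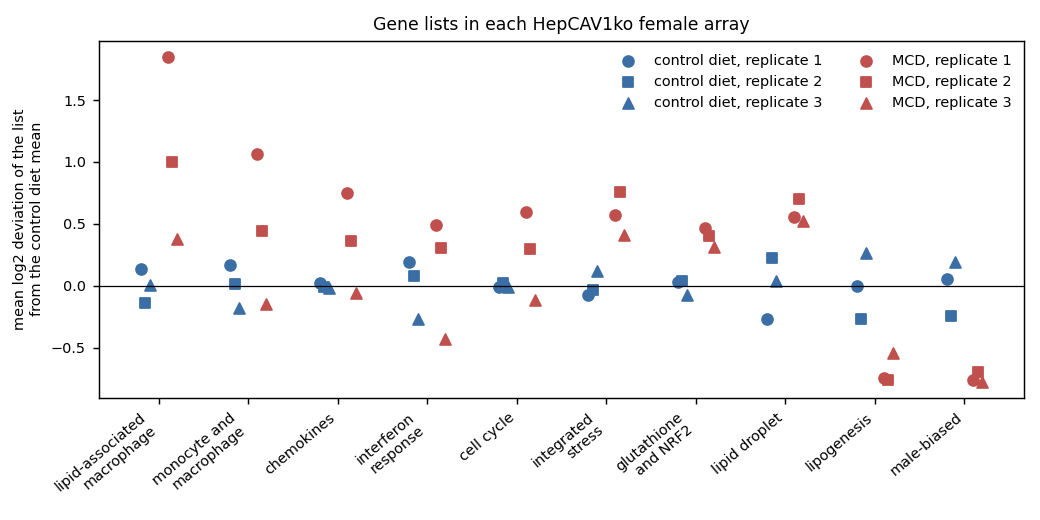
Mean log2 deviation of 10 gene lists from their control mean (vertical axis) in each control (blue) and MCD (red) array of HepCAV1ko females, with marker shape for the replicate number. MCD 3 (red triangle) lies within or below the controls in the monocyte, chemokine, interferon and cell cycle lists, whereas all 3 MCD arrays lie apart from the controls in the glutathione, integrated stress, lipid droplet, lipogenesis and male-biased lists.

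Of 30 collagen and matrix genes on the list 1 rose, Dcn, a small proteoglycan that binds collagen, which read 9.96, 9.69 and 9.85 in control 1 to 3 and 10.87, 10.53 and 10.49 in MCD 1 to 3 (0.80 ± 0.14 (SE, adjusted p = 0.00223)). Off the list, and named after their values were seen, Omd and Tgfbi rose and Dpt fell. Omd passed in each fit without 1 array (log2 fold changes 1.63 to 2.20). The call for Tgfbi was lost without MCD 1 or MCD 2, and that for Dpt was kept only without MCD 3. Col1a1, the main collagen of scar tissue, read 5.40, 5.33 and 5.47 in control 1 to 3 and 6.67, 6.01 and 5.32 in MCD 1 to 3, and MCD 3 lay among the controls (adjusted p = 0.491). In HepCAV1ko males 12 of the 30 genes rose, but the difference between the sexes was not called for any of them. The males had more calls in general, with 893 of 24673 genes higher and 746 lower. Pdgfra, a receptor of portal fibroblasts and stellate cells, read 5.98, 5.54 and 5.87 in control 1 to 3 and 7.33, 6.83 and 6.84 in MCD 1 to 3 (1.20 ± 0.20 (SE, adjusted p = 0.00221)) and was the called member of the stellate and profibrotic lists. Mmp13, a collagenase, read 2.56, 2.37 and 2.64 in control 1 to 3 and 5.57, 4.99 and 2.86 in MCD 1 to 3 and did not pass (adjusted p = 0.0552). Adamts1, a secreted protease, rose (0.85, adjusted p = 0.0252), lost without control 2, control 3, MCD 1 or MCD 2 (adjusted p up to 0.157). Of 15 endothelial markers Lyve1 rose (0.73, adjusted p = 0.0449), and of 11 caveola genes Cavin2 (0.89, adjusted p = 0.0396), calls lost for Lyve1 without control 2, control 3, MCD 1 or MCD 2 (adjusted p up to 0.222) and Cavin2 without control 2, control 3, MCD 1 or MCD 2 (adjusted p up to 0.22). None of 11 cholangiocyte markers passed (limma; 3 at an unadjusted p under 0.05).

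Of 36 cell cycle genes 1 rose, Ccnd1, which drives the entry into the cycle. It read 9.18, 8.84 and 8.52 in control 1 to 3 and 10.52, 10.35 and 9.60 in MCD 1 to 3 (1.31 ± 0.27 (SE, adjusted p = 0.013)), and the call was lost without control 3, MCD 1 or MCD 2 (adjusted p up to 0.0985). Without MCD 3, 5 cell cycle genes passed. Of 27 measured members of the lysosomal list 5 rose and none fell, all 27 had a positive log2 fold change, 17 passed an unadjusted p under 0.05, and the median was 0.31. Atp6v0d2, a proton pump subunit, read 7.53, 7.37 and 6.61 in control 1 to 3 and 9.15, 9.19 and 8.43 in MCD 1 to 3 (1.75 ± 0.31 (SE, adjusted p = 0.00294)). Glb1, the lysosomal beta-galactosidase, is not on the list and fell by 1.28 on the log2 scale (adjusted p = 1.93e-05). The other 4 rises in the list were the cathepsins Ctsa (0.56), Ctsz (0.53) and Ctsd (0.57) and the hexosaminidase Hexa (0.65). Their calls were lost for Ctsa without MCD 1 or MCD 2 (adjusted p up to 0.106), Ctsz without control 1, control 3, MCD 1 or MCD 2 (adjusted p up to 0.101), Ctsd without control 1, control 2, control 3, MCD 1 or MCD 2 (adjusted p up to 0.247) and Hexa without control 1, control 3, MCD 1 or MCD 2 (adjusted p up to 0.213), so that without MCD 1 or MCD 2 only 1 lysosomal gene passed, and 9 did without MCD 3.

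Of 35 complement and coagulation genes 4 fell and none rose. Mbl2, the mannose-binding lectin, read 10.04, 10.08 and 9.83 in control 1 to 3 and 8.72, 8.86 and 8.88 in MCD 1 to 3 (-1.16 ± 0.18 (SE, adjusted p = 0.000783)). Coagulation factor F7 read 10.01, 10.02 and 10.09 in control 1 to 3 and 9.04, 8.91 and 9.33 in MCD 1 to 3 (-0.94 ± 0.15 (SE, adjusted p = 0.000823)), and C8g, a subunit of the membrane attack complex, read 10.33, 10.11 and 10.02 in control 1 to 3 and 9.39, 9.54 and 9.48 in MCD 1 to 3 (-0.68 ± 0.13 (SE, adjusted p = 0.0059)). In these 3 genes MCD 3 lay beside the other MCD arrays. The protease Masp2 fell (-0.52, adjusted p = 0.0116), lost without MCD 1 or MCD 2 (adjusted p up to 0.0917). Of 24 urea cycle and amino acid genes on the list 2 fell, both of tryptophan breakdown. Enzymes of other amino acids fell off the list, such as Acad8 and Amt, named after their values were seen. Both passed in each fit without 1 array. Haao, which makes the precursor of quinolinate, read 10.38, 10.36 and 10.50 in control 1 to 3 and 9.24, 9.16 and 9.54 in MCD 1 to 3 (-1.10 ± 0.16 (SE, adjusted p = 0.000654)), and Kynu fell by 0.66 on the log2 scale, a call that only the fit without MCD 3 kept. None of 18 endoplasmic reticulum chaperones and none of 25 fasting genes on the lists passed (limma; 2 and 7 at an unadjusted p under 0.05). The fasting list does not hold Pdk4 or Fgf21, which rose as given above. P4hb, a protein folding enzyme of the endoplasmic reticulum, is not on the chaperone list and was named after its values were seen. It rose and passed in each fit without 1 array (log2 fold changes 0.53 to 0.69).

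Growth hormone acts on hepatocytes through STAT5 and sets many differences between male and female liver. Of 21 genes of this axis 4 fell and 1 rose. Ghr, the receptor, read 10.14, 9.98 and 9.93 in control 1 to 3 and 9.27, 9.29 and 9.46 in MCD 1 to 3 (-0.68 ± 0.13 (SE, adjusted p = 0.00773)). Igfals, which carries IGF-1 in the circulation, read 8.79, 8.96 and 8.58 in control 1 to 3 and 7.98, 8.01 and 8.27 in MCD 1 to 3 (-0.69 ± 0.15 (SE, adjusted p = 0.0139)), Igf1 itself changed by -0.49 ± 0.11 (SE, adjusted p = 0.019) and Cux2, a female-specific repressor of male genes, by -1.04 ± 0.22 (SE, adjusted p = 0.0145). Igfbp2, a binding protein that rises in catabolic states, read 9.57, 9.12 and 9.27 in control 1 to 3 and 10.62, 10.39 and 10.15 in MCD 1 to 3 (1.07 ± 0.22 (SE, adjusted p = 0.0114)). No array overlapped in Ghr, Igfals or Igfbp2. No member of the list was called lower without MCD 2, and 5 were without MCD 3. The calls were lost for Ghr without MCD 1 or MCD 2 (adjusted p up to 0.0536), Igfals without control 2, MCD 1 or MCD 2 (adjusted p up to 0.097), Igf1 without control 1, control 3, MCD 1 or MCD 2 (adjusted p up to 0.151), Cux2 without control 1 or MCD 2 (adjusted p up to 0.128) and Igfbp2 without control 2, MCD 1 or MCD 2 (adjusted p up to 0.0837).

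Genes that mouse liver expresses at a higher level in females did not move together. Of 34 measured, 4 rose and 4 fell, with a median of 0.00, whereas in HepCAV1ko males 20 rose and 1 fell with a median of 1.57. Over all 24673 genes, 893 rose and 746 fell in these males, against 189 and 217 in the females. The rises in females were Lpl, Atp6v0d2, the transporter Slc16a5 (1.41, adjusted p = 0.00567) and Cd36, and the falls Cyp3a16, Sult3a1, Cyp2c69 and Cux2. Of 30 male-biased genes 2 rose and 5 fell in females, with a median of -0.52, and none rose and 26 fell in males, with a median of -2.06. In the 3 MCD arrays of the females the male-biased list deviated by -0.76, -0.70 and -0.78, with MCD 3 level with the others.

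The diet response differed between HepCAV1ko females and HepCAV1ko males for 43 genes by the limma interaction term. In 18 it was higher in females (0.073% of the genes tested) and in 25 lower (0.101%). Of the 18, 10 were on the male-biased list and 15 were called in males but 4 in females, and of the 25, 13 were on the female-biased list and 22 were called in males but 8 in females. For 40 of the 43 genes the gap between the sexes was wider on the control diet than on MCD. Cyp2b9, a female-enriched cytochrome, read 11.96, 12.16 and 11.67 in control 1 to 3 and 11.32, 11.41 and 11.65 in MCD 1 to 3 in females, whereas males read 4.56, 3.24 and 2.33 on the control diet and 10.11, 10.58 and 10.88 on MCD, a difference in response of -7.62 ± 0.51 (SE, adjusted p = 1.82e-08). The males on MCD came close to the females, which stayed near their own controls. Moxd1, a male-enriched monooxygenase-like protein, was so dim in females on both diets that no fall could be measured there (2.19, 2.68 and 2.13, then 2.36, 2.48 and 2.32) and read 8.53, 9.17 and 9.60 on the control diet and 2.54, 2.56 and 2.29 on MCD in males (6.69 ± 0.48 (SE, adjusted p = 4.31e-08)).

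Trim24, a female-enriched cofactor of nuclear receptors, read 8.75, 8.37 and 8.15 in control 1 to 3 and 8.46, 8.47 and 8.29 in MCD 1 to 3 in females and 5.86, 6.16 and 6.40 on the control diet and 7.93, 8.13 and 8.21 on MCD in males (-1.97 ± 0.24 (SE, adjusted p = 0.000161)). Cyp2a4, a steroid hydroxylase, differed by -3.62 ± 0.39 (SE, adjusted p = 3.25e-05) and Cyp2b13 by -3.71 ± 0.43 (SE, adjusted p = 0.000109), in both cases with a rise in males. The opposite held for Cyp3a16 and Sult3a1, which fell in females and were between 1.62 and 2.01 in males on both diets, so that no further fall could be measured there (-5.66 ± 0.68 (SE, adjusted p = 0.000138) for Cyp3a16 and -4.68 ± 0.76 (SE, adjusted p = 0.00554) for Sult3a1). Cyp2d9 rose in females and fell in males (-1.40), and Gstp1 rose in females and read -0.30 in males, which differed by 3.21 ± 0.44 (SE, adjusted p = 0.000831) and 1.71 ± 0.33 (SE, adjusted p = 0.0273). Pltp fell in females with a male response of 0.44 (-1.66 ± 0.26 (SE, adjusted p = 0.00315)). Ccnd1 and Atp6v0d2 rose in both sexes and by more in males (3.89 and 4.11).

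C6, C8a and C8b, which encode parts of the terminal complement complex, were among the genes with a higher response in females and are named after their values were seen. C6 averaged 6.81 and 6.18 in females on the control and MCD diets and 10.85 and 8.04 in males, and C8a 8.13 and 8.33 against 11.05 and 9.27. C8b averaged 9.52 and 9.37 in females and 11.86 and 10.12 in males. In males these 3 genes fell towards the level of the females.

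**Figure D5:**
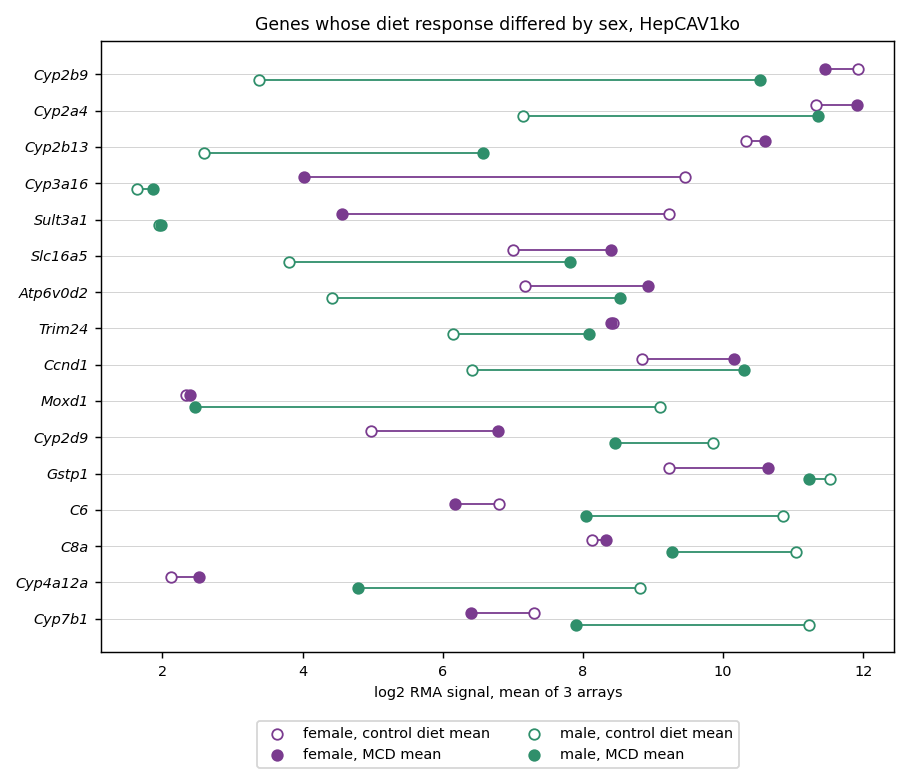
Mean log2 RMA signal of 3 arrays (horizontal axis) on the control diet (open) and MCD (filled) in HepCAV1ko females (purple) and HepCAV1ko males (green) for 16 of the 43 genes whose diet response differed by sex. Males move towards the females for Cyp2b9, Cyp2a4, Trim24, Moxd1 and C6, and females move for Cyp3a16 and Sult3a1.

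The diet response of HepCAV1ko females was not distinguishable from that of HepCAV1wt females at this number of arrays. No gene passed for the difference between the genotypes (0%, limma), 1045 genes had an unadjusted p under 0.05 where 1234 would be expected, and the smallest adjusted p was 0.62, for Accsl. The standard error of a typical difference was 0.23. Of the 406 genes called in HepCAV1ko females, 403 moved in the same direction in HepCAV1wt females and 302 were called there too, which is 74.4% of the 406 and 24.8% of the 1216 genes called in HepCAV1wt females. None was called in the opposite direction. HepCAV1ko males shared 273 of the calls in the same direction and 2 in the opposite direction, and 55 of the 406 were called in none of the other 3 groups. These shares do not show that a gene responds in 1 group alone.

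Genes with the smallest p for the genotype difference included Irs2, an adaptor of the insulin receptor, which read 6.09, 6.07 and 6.56 in control 1 to 3 and 6.90, 6.94 and 7.01 in MCD 1 to 3 (log2 fold change 0.71) beside -0.51 in HepCAV1wt females. The difference was 1.22 ± 0.27 (SE), with an adjusted p of 1.00. Gpd1, the glycerol-3-phosphate dehydrogenase, had -0.44 beside 0.31. Dsg1c rose by 2.81 in HepCAV1ko and 1.57 in HepCAV1wt females, a difference of 1.24 ± 0.37 that did not pass either.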

How the data were processed

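RNA of whole livers was hybridised to Affymetrix MoGene 2.0 ST arrays by the authors. The deposited table holds log2 signals that the authors made with RMA (background correction, quantile normalisation and probe summary), so all arrays share the same distribution and the depth is given by the number of arrays alone. Tool versions and probe annotation of that step are not given in the sources used here. Of 25428 features, 24673 had a RefSeq symbol (GRCm38.p6) through the platform annotation and were tested, and 755 had none.

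All 24 arrays were fitted with 1 mean for each of 8 groups (limma 3.58.1 in R 4.3.3, lmFit and eBayes, 16 residual degrees of freedom, two-sided), with Benjamini-Hochberg adjustment over the 24673 genes. The interaction terms compared the diet response with that of HepCAV1wt females and HepCAV1ko males. On simulated data for this comparison (24673 genes, 200 changed) 85% of genes with a log2 change of 1 and 99% with 2 were recovered. These percentages describe the simulated data only. Whether they hold for the real MCD arrays, which differed in the strength of their diet response, was not tested. The members, the 43 gene lists and the motifs were chosen with earlier results of these data known. Named genes were the 12 largest rises and falls that passed in each fit without 1 array and did not overlap, up to 4 members of each list by the same criteria, a set of diet and marker genes, and 6 genes of smallest p in each difference, without unnamed gene models. List members beyond these are named for completeness of a count. Alternatives were other fits, array weights, a filter on dim genes, a different centring, a replicate block, the methods' t-test and leaving out each array. Equal replicate numbers were not treated as pairs in the main fit, whereas the replicate block treated them as pairs. No columns were identical.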

Additional observations from a re-analysis of the deposited data

Results flagged for a closer look

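For 13 named genes the diet response of HepCAV1ko females differed from that of HepCAV1ko males by the limma interaction term. A negative value means a lower response in females. Cytochromes and sulfotransferases gave Cyp2b9 (-7.62), Cyp2a4 (-3.62), Cyp2b13 (-3.71), Cyp3a16 (-5.66), Cyp2d9 (3.21) and Sult3a1 (-4.68). Glutathione transferases gave Gstm2 (-1.09) and Gstp1 (1.71). The remaining genes were Moxd1 (6.69, with females dim on both diets), Trim24 (-1.97), Ccnd1 (-2.58), Pltp (-1.66) and Atp6v0d2 (-2.35).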

How the results depend on the processing

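Precision is limited by 3 arrays per diet. The counts of 189 higher and 217 lower genes became 67 and 77 with the 6 arrays alone, 357 and 376 with array weights, and 0 and 1 with the methods' t-test after Benjamini-Hochberg adjustment, which had 2410 genes at their unadjusted threshold. Leaving out 1 array gave 72 to 329 higher and 79 to 281 lower. The replicate block gave 167 higher and 169 lower, and same-numbered arrays of HepCAV1ko females correlated at 0.21, 0.05 and 0.11 (in their deviations from the group means), each best with its own number. For the difference between genotypes the replicate block gave 1 lower gene, and leaving out 1 array 0 to 1. For the difference between sexes, with 18 higher and 25 lower, the arrays of the contrast alone gave 11 higher, fits without moderated variances 11 and 14, and leaving out 1 array 11 to 20 higher and 15 to 26 lower. Changes of sign occurred only among 6 uncalled genes. Trim24 gave 0.0359 with array weights. Leaving out 1 array, Cyp2c39 ranged from -0.233 to 0.0804, Cyp7a1 from -0.283 to 0.345, Eif2s3y from -0.104 to 0.209, Mat1a from -0.00456 to 0.14, Moxd1 from -0.0492 to 0.226 and Trim24 from -0.155 to 0.148. The causes were not tested. Of 2046 values for named genes under the alternatives 1801 kept their direction and side of the threshold.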

Other observations

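Ptgfr, the receptor of prostaglandin F2 alpha, was among the genes whose diet response was higher in HepCAV1ko females than in HepCAV1ko males, and it is named here after its values were seen. It read 3.61, 4.29 and 3.53 in control 1 to 3 and 4.99, 5.22 and 5.98 in MCD 1 to 3 in females, without overlap (1.59 ± 0.21 (SE, adjusted p = 0.000205)), and passed with any of the 6 arrays left out. In males its change was 0.08, and the difference was 1.51 ± 0.30 (SE, adjusted p = 0.0377). Nt5e, the ectoenzyme that makes adenosine outside the cell, fell in females (-0.89, adjusted p = 0.0354) and read 4.76, 4.64 and 4.38 on the control diet and 6.07, 5.76 and 5.95 on MCD in males (-2.23 ± 0.31 (SE, adjusted p = 0.000899)). The call for Nt5e in females was lost without control 1, control 2, MCD 1, MCD 2 or MCD 3 (adjusted p up to 0.176).

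Of the 406 genes called in HepCAV1ko females 379 were protein coding. The small nucleolar RNA Snord66 fell by 1.30 on the log2 scale (adjusted p = 0.00408) from 8.18, 7.94 and 8.004 to 6.40, 6.65 and 7.18, also a gene named after its values were seen. Snord66, like other small nucleolar RNAs, lies inside an intron of a host gene, and the array does not separate the mature RNA from its host transcript.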
